A study of Mus musculus with 23 samples.

Results

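The genes described here mark the immune cells of the liver and the signals these cells exchange. The set was a list of 37 gene names covering the surface of Kupffer cells, lysosomal and Fc receptor genes of macrophages, the complement C1q chains, receptors for microbial products, genes of other leukocytes, chemokines and cytokines. Of these, 36 were found by name on the array, out of 37074 named genes with a probe and 21056 genes tested. The remaining one, Emr1 (a classical surface antigen of mouse macrophages), was listed on the array under its newer symbol Adgre1 and is given beside the others but is left out of the counts. Where a gene had several probes, the one with the highest mean signal was read.

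Liver RNA of 23 male mice on the C57Bl6/J background was hybridised to 1-colour arrays, with 1 array per mouse. The groups were 6 wild-type mice given corn oil (WT CONT), 5 wild-type mice given pregnenolone 16alpha-carbonitrile (WT PCN), 6 Pxr-/- mice given corn oil (Pxr-/- CONT) and 6 Pxr-/- mice given PCN (Pxr-/- PCN). PCN is a steroid that activates the rodent pregnane X receptor (PXR), and it was injected into the peritoneum at 100 mg/kg every day for 4 days. Corn oil was injected in the controls too, and all livers were collected at Zeitgeber time 6, which was 6 h after the final injection. The labels call the mice fed at that time, and the study's text calls them semi-fasted. The deletion of Pxr was present in the whole animal. WT mice were purchased at 6 weeks of age and acclimatized for 2 weeks, and Pxr-/- mice came from a colony bred in the local facility (age not given in the sources used here), so that genotype and colony cannot be told apart. The arrays were washed in 2 batches. Batch 1 held 3 mice of every group, and batch 2 held 3 of every group except WT PCN, with mice 2 and 3.

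PXR is a nuclear receptor of hepatocytes and enterocytes that senses drugs and bile acids and switches on enzymes of xenobiotic metabolism. Kupffer cells are the resident macrophages of the liver and line the sinusoids, where they clear particles, dying cells and bacterial products from portal blood. When Toll-like receptors on such cells are engaged, the transcription factors NF-kB and AP-1 drive inflammatory genes, including chemokines that draw monocytes and neutrophils from blood and cytokines of the interleukin 1 family. In whole liver these transcripts come from a minority of the cells, and hepatocytes and stellate cells can make some of them as well, including Cxcl1 and Ccl2.

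As a check of the treatment, Cyp3a11, the classical PXR target of mouse liver, rose after PCN in WT mice (log2 change 3.55, limma adjusted p = 4.12e-10), while its change in Pxr-/- mice was 0.31 (adjusted p = 0.43). The probe for the deleted gene, Nr1i2, did not separate the genotypes, with group medians of 11.60 in WT CONT and 11.79 in Pxr-/- CONT, and its place relative to the deletion was not determined. Each array had between 29510 and 33321 probes well above background. All 36 members were well above background on all 23 arrays and none was saturated. All 9 hepatocyte markers examined were also above background on every array.

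Promoter sequence was read for the members that rose after PCN in both genotypes. Whether these genes varied together from mouse to mouse was not tested. Windows were the 250 bases before the annotated start in RefSeq (build GRCm38.p6), 5′ to 3′ on the strand of the gene. Capitals mark matches to the NF-kB consensus in Cxcl1 and Tlr2 and to the AP-1 motif TGANTCA in Il1rn, both searched on both strands. The N stands for any base, and every such version was counted as the AP-1 motif. The promoter of Cd14, the fifth such gene, was not used here.
Cxcl1, chr5:90890995-90891244, plus strand: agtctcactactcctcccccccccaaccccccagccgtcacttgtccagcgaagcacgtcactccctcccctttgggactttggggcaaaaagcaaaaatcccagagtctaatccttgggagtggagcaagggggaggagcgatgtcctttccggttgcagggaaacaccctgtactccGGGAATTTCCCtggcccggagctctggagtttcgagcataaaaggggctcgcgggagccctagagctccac
Tlr2, chr3:83841609-83841858, minus strand: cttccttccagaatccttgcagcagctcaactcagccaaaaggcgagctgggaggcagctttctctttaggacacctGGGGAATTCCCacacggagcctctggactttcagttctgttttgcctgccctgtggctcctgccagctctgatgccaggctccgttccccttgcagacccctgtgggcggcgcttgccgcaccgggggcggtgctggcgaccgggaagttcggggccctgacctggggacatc
Il1b, chr2:129371140-129371389, minus strand: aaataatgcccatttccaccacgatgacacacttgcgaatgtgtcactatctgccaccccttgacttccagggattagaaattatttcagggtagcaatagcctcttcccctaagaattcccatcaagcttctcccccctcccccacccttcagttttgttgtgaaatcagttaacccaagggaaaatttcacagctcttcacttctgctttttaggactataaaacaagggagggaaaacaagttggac
Il1rn, chr2:24336610-24336859, plus strand, the first of 3 annotated starts: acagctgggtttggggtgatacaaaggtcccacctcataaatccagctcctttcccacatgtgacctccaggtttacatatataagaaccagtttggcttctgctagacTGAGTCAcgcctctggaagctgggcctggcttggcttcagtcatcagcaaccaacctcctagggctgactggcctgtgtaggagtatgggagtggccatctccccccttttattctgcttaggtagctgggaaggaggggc
The matches lay 71 to 61 bases before the start in Cxcl1, as 2 overlapping matches, 173 to 163 bases before the start in Tlr2, again as 2 overlapping matches, and 141 to 135 bases before the start in Il1rn. Il1b held neither motif in this window. Over 27025 genes with a window, 8.23% held the NF-kB consensus and 7.82% held the AP-1 motif. Among the 27 members with a window, each motif was found in 4, or 14.8%. Those with the NF-kB consensus were C1qc, Tlr2, Cxcl1 and Cxcl10, and those with the AP-1 motif were Cd68, Itgax, Cxcl10 and Il1rn. A match of letters is a description of the sequence and not a measured site.

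The first question was which of these genes responded to PCN when the receptor was present. In WT mice, 9 of the 36 members rose and none fell. A gene was called when limma gave an adjusted p of at most 0.05 (Benjamini-Hochberg over 32087 probes) with a change above 1.5-fold, and by this rule 5.52% of all probes were called, 3.38% higher and 2.13% lower. The members that rose were the endotoxin co-receptor Cd14, Tlr2, the leukocyte genes Itgax, Cx3cr1 and Ccr2, the chemokines Ccl2 and Cxcl1, the cytokine Il1b and its antagonist Il1rn. The median log2 change over the 36 members was 0.36, against -0.02 over all probes, and 29 of 36 changes lay above 0, against 45.7% of all probes. An unadjusted p under 0.05 was found for 17 members, against 34.8% of all probes. In 5 members every WT PCN mouse was above every WT CONT mouse, and in 1 member, Cxcl10, every treated mouse was below, compared with 5.53% and 6.16% of all probes. In bulk liver, fewer or more cells of a type and less or more RNA per cell cannot be told apart.

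The second question was which of these changes were also present without PXR. In Pxr-/- mice, 5 of 36 members rose and none fell, where 1.93% of all probes were called, 1.23% higher and 0.698% lower. These 5 were Cd14, Tlr2, Cxcl1, Il1b and Il1rn, all of which were among the 9 of the WT mice. The median over the 36 members was 0.27, against -0.01 over all probes. Of the 36 changes 30 lay above 0, against 47.6% of all probes. An unadjusted limma p under 0.05 was found for 9 members, against 21.6% of all probes. In 3 members, Cd14, Ccl6 and Il1rn, the 6 treated mice lay above the 6 controls without overlap, compared with 1.46% of all probes.

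**Figure D1:**
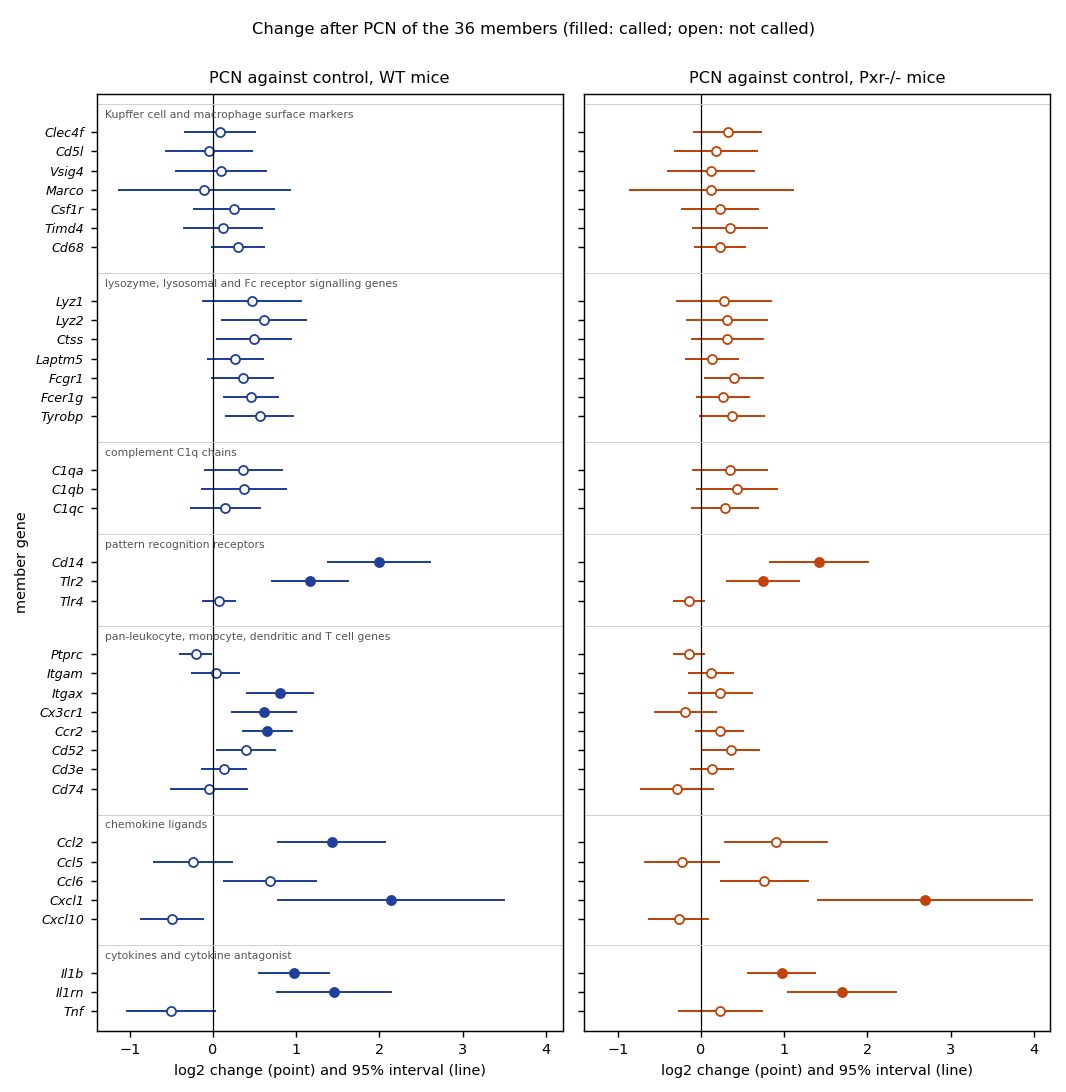
Log2 change after PCN (horizontal axis) of the 36 members, grouped by list, in WT mice (left) and Pxr-/- mice (right). Points are limma estimates, lines their 95% intervals, and filled points the called members, 9 on the left and 5 on the right, none of which lies in the first 3 lists.

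The genes that define resident macrophages did not pass the test in either genotype. Of the 7 Kupffer and macrophage surface markers, none was called, with log2 changes from -0.11 to 0.30 in WT mice (median 0.09) and from 0.12 to 0.34 in Pxr-/- mice (median 0.23). Cd5l, a secreted scavenger protein of tissue macrophages, had the highest mean signal of these. Its log2 signal in the WT PCN mice was 14.13, 13.32, 15.05, 14.12 and 14.11, and WT CONT mice ran from 13.69 through a median of 14.19 to 14.76. In Pxr-/- mice it ran from 13.64 through 13.93 to 14.65 in controls and from 13.72 through 14.22 to 14.70 after PCN. The treated and control ranges overlapped almost fully, and the change in WT mice was -0.05 (95% interval -0.57 to 0.47, limma adjusted p = 0.92). Clec4f, the lectin receptor particular to Kupffer cells among macrophages, changed by 0.08 in WT mice (interval -0.34 to 0.51) and by 0.32 in Pxr-/- mice (interval -0.08 to 0.73). Adgre1 changed by 0.48 (adjusted p = 0.20) and 0.38 (adjusted p = 0.41) and was not called. Marco, a scavenger receptor, had the widest spread of the list among the WT PCN mice, from 11.33 to 14.92.

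None of the 7 lysozyme, lysosomal and Fc receptor genes was called in either genotype. All 7 estimates lay above 0 in both, with medians of 0.47 in WT mice and 0.32 in Pxr-/- mice. Fcer1g and Tyrobp encode adaptor chains that carry activating signals from Fc and related receptors. Both passed the adjusted p in WT mice (0.0408 and 0.0409) with changes of 0.46 and 0.56, below the fold limit. Lyz2, the lysozyme of macrophages and neutrophils, had the highest mean signal. The WT PCN mice read 13.90, 14.51, 14.40, 14.30 and 14.35, and WT CONT mice ran from 13.04 through 13.78 to 14.04. The Pxr-/- mice ran from 12.85 through 13.27 to 14.26 in controls and from 13.12 through 13.90 to 14.29 after PCN. In WT mice 4 treated mice were above all controls and 1 was within their range, and the change was 0.61 (SE 0.24, limma adjusted p = 0.0729). The second probe of Lyz2 was called in WT mice (1.05, adjusted p = 0.00904) and not in Pxr-/- mice (0.47, adjusted p = 0.32), so that the call depended on the probe. The main probe of Lyz2 shared 22 of 60 bases with that of its paralog Lyz1 in their best ungapped alignment. The probes were compared only with each other, so binding of either probe to the transcript of the other gene was not tested.

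The C1q chains, which macrophages secrete to start the classical complement pathway, were not called in either genotype. Their changes ran from 0.15 to 0.37 in WT mice and from 0.29 to 0.43 in Pxr-/- mice. C1qc, the brightest of the 3, read 12.34, 11.82, 12.79, 12.29 and 12.06 in the WT PCN mice, against 11.63 through 12.06 to 12.51 in WT CONT. It ran from 11.47 through 11.94 to 12.59 in Pxr-/- CONT and from 11.83 through 12.24 to 12.63 in Pxr-/- PCN. Both pairs of groups overlapped, and the WT change of 0.15 had a 95% interval from -0.27 to 0.57.

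These macrophage genes varied together from mouse to mouse. Over the 10 Kupffer surface and C1q genes, WT CONT mouse 6 held the highest value of its group in 10 of 10 and mouse 1 the lowest in 9 of 10. Among WT PCN mice, mouse 3 was highest in 10 of 10 and mouse 2 lowest in 8 of 10. Pxr-/- CONT mouse 1 was lowest in 9 of 10, and Pxr-/- PCN mouse 2 was lowest in 10 of 10. Over the 9 members called after PCN, WT CONT mouse 6 was again highest in 6 and mouse 1 lowest in 5. Pxr-/- CONT mouse 1 and Pxr-/- PCN mouse 2 were each lowest in 1 of the 9. Pxr-/- CONT mice 2 and 4 were highest in 3 and 6 of the 10 macrophage genes, and in 5 and 3 of the 9. Pxr-/- PCN mice 1 and 4 were highest in 4 and 2 of the 10, and in 3 and 4 of the 9. WT PCN mouse 3 was the highest of its group in none of these 9 genes and the lowest in 4, and Pxr-/- PCN mouse 6, which held the highest value for 4 of the 10 macrophage genes, was lowest in 6 of the 9.

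**Figure D2:**
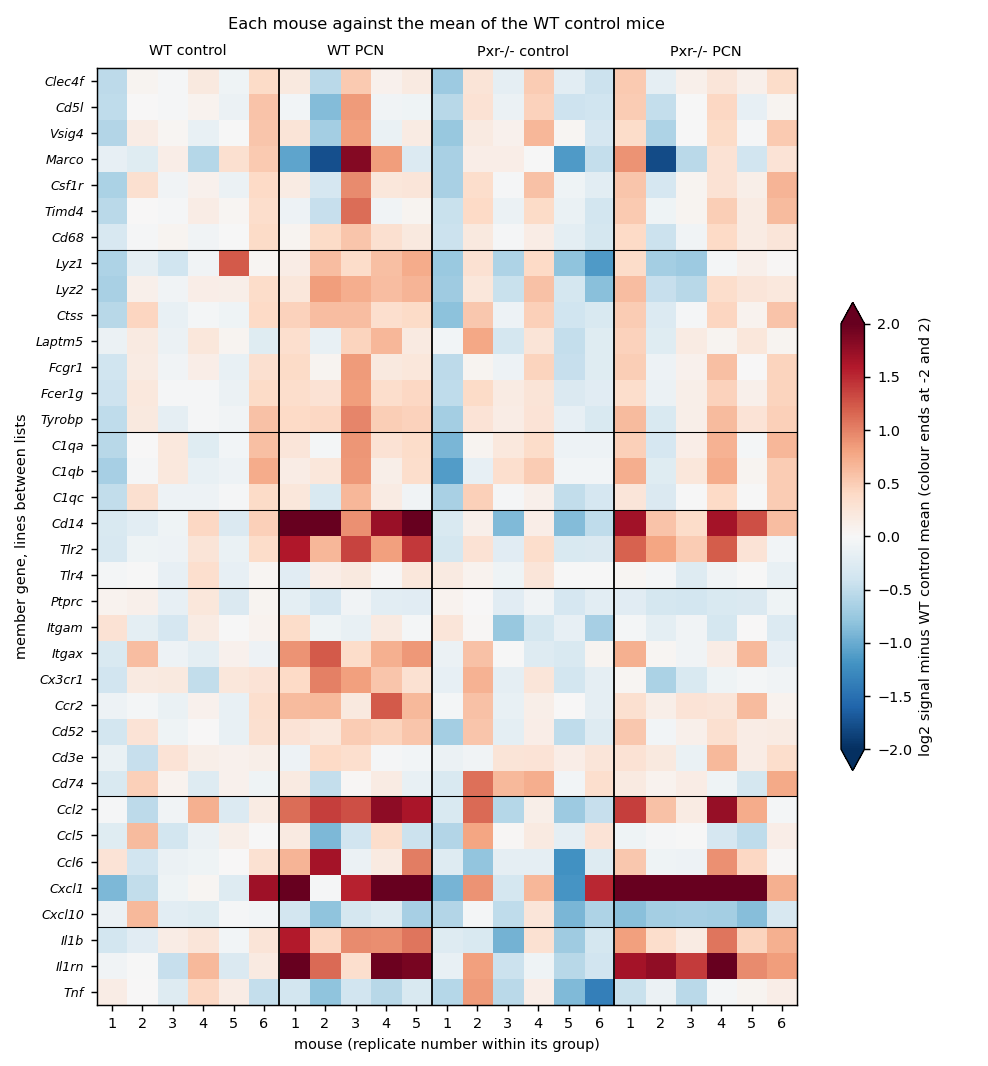
Log2 signal of each member (rows, ordered by list) in each mouse (columns, by group and replicate number) minus the mean of the WT CONT mice. Red is higher and blue lower, with the colour scale ending at -2 and 2. The Kupffer and C1q rows change colour by mouse within each group, whereas the rows of Cd14, Tlr2, Cxcl1, Il1b and Il1rn are red across most treated mice of both genotypes.

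The receptors for microbial products were called in both genotypes, except Tlr4. Cd14 hands bacterial lipopolysaccharide to Tlr4. Its log2 signal was 10.83, 10.21, 9.13, 9.94 and 11.08 in the WT PCN mice and ran from 7.90 through 8.06 to 8.69 in WT CONT. In Pxr-/- mice it ran from 7.33 through 7.81 to 8.34 in controls and from 8.58 through 9.17 to 9.88 after PCN. Every treated mouse of either genotype was above every control of the same genotype. The change was 2.00 in WT mice (SE 0.30, 3.99-fold, limma adjusted p = 7.15e-05), with 2.63 in washing batch 1 and 1.23 in batch 2 (adjusted p = 0.0832). In Pxr-/- mice it was 1.42 (SE 0.28, 2.67-fold, adjusted p = 0.00525), with 1.14 in batch 1 and 1.70 in batch 2 (adjusted p = 0.18 and 0.0601). The second probe of Cd14 was called in both genotypes too (1.81 and 1.25).

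Tlr2 recognises bacterial lipoproteins, and its probe lies at chr3:83640344-83640403 (build mm9, minus strand). The WT PCN mice read 9.53, 8.60, 9.30, 8.75 and 9.36, all above the WT CONT range of 7.62 to 8.31 (median 7.85). Pxr-/- CONT mice ran from 7.58 through 7.68 to 8.28, and Pxr-/- PCN mice from 7.89 through 8.59 to 9.15, with 4 of 6 treated mice above every control. The change in WT mice was 1.17 (SE 0.22, 2.24-fold, adjusted p = 0.00065), with 1.46 in batch 1 and 0.83 in batch 2 (adjusted p = 0.14). In Pxr-/- mice it was 0.74 (SE 0.21, 1.67-fold, adjusted p = 0.0357), with 0.56 in batch 1 and 0.92 in batch 2, both short of the threshold. This call was lost without any one of 8 arrays, Pxr-/- PCN mice 1, 2, 3 or 4 or Pxr-/- CONT mice 1, 3, 5 or 6, where the adjusted p lay between 0.0531 and 0.104. Tlr4 changed by 0.07 in WT mice (adjusted p = 0.62) and by -0.14 in Pxr-/- mice (adjusted p = 0.37). Its second tested probe changed by 0.20 (limma adjusted p = 0.13) and by 0.15 (adjusted p = 0.37) and was not called, so that the probes disagreed in sign in Pxr-/- mice.

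**Figure D3:**
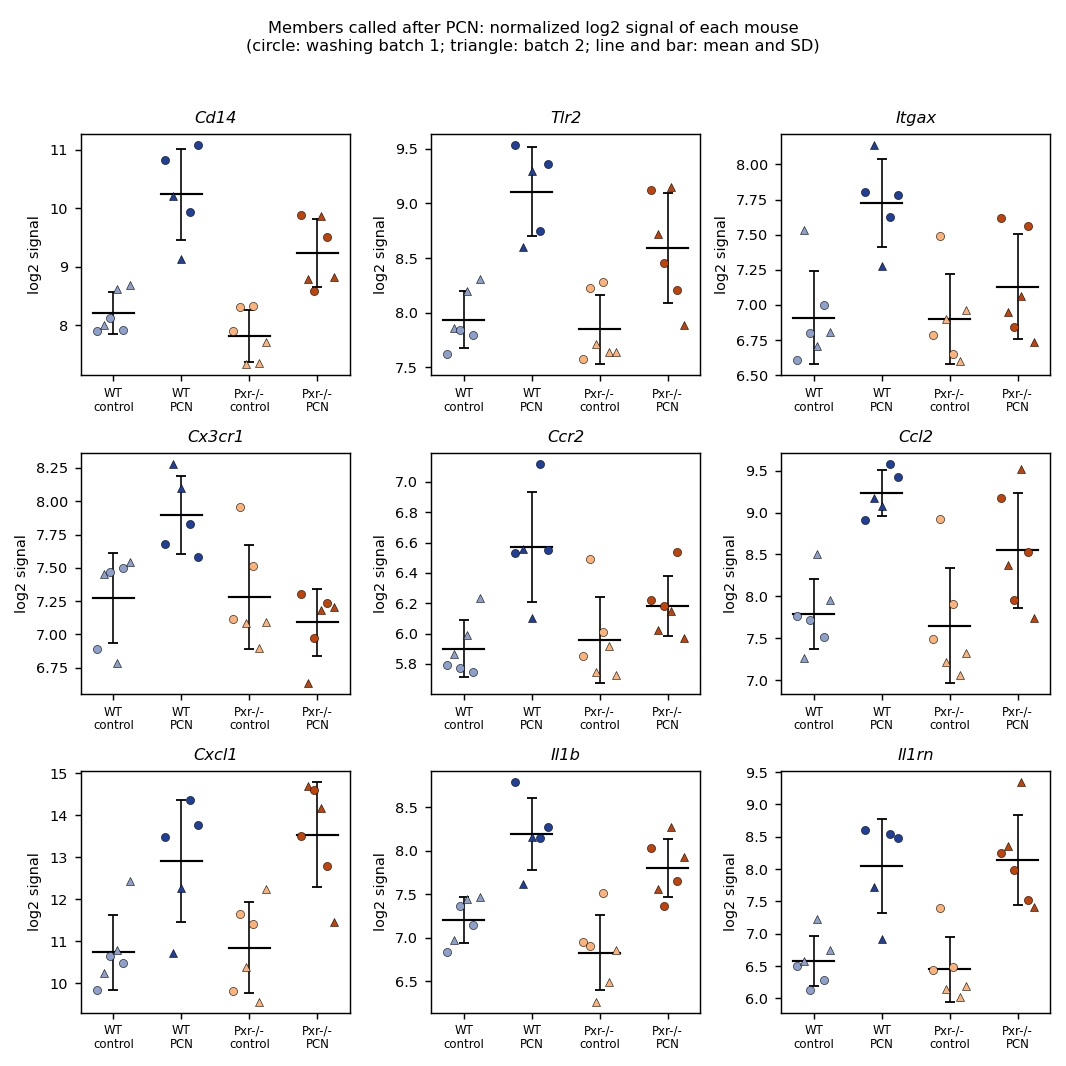
Normalized log2 signal (vertical axis) of the 9 members called after PCN, in each mouse of the 4 groups. Circles are washing batch 1, triangles batch 2, and the line and bar give the mean and SD of a group. Cd14 shows no overlap between treated and control mice in either genotype, whereas for Cx3cr1 none of the Pxr-/- PCN mice lies above the highest Pxr-/- CONT mouse.

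Of the 8 genes of other leukocytes, 3 rose in WT mice (Itgax, Cx3cr1 and Ccr2) and none was called in Pxr-/- mice. Itgax encodes CD11c, an integrin chain of dendritic cells and some macrophages, and its probe lies at chr7:135294052-135294111 (mm9, plus strand). It read 7.80, 8.14, 7.28, 7.62 and 7.78 in WT PCN mice, against 6.61 through 6.80 to 7.53 in WT CONT. Pxr-/- mice ran from 6.60 through 6.84 to 7.49 in controls and from 6.74 through 7.01 to 7.62 after PCN. Among WT mice 4 of 5 treated values were above every control. The change was 0.81 in WT mice (SE 0.19, 1.75-fold, adjusted p = 0.00427), with 0.93 in batch 1 and 0.69 in batch 2 (adjusted p = 0.16). It was 0.23 in Pxr-/- mice (adjusted p = 0.50).

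Cx3cr1 is the fractalkine receptor of monocytes and some macrophages (probe at chr9:119957811-119957870, mm9, minus strand). The WT PCN mice read 7.68, 8.28, 8.10, 7.83 and 7.58, just above the WT CONT range of 6.79 to 7.54 (median 7.46). The Pxr-/- controls ran from 6.90 through 7.10 to 7.96, and Pxr-/- PCN mice from 6.64 through 7.20 to 7.30. The change in WT mice was 0.61 (SE 0.19, 1.53-fold, adjusted p = 0.0203), with 0.41 in batch 1 (adjusted p = 0.23) and 0.93 in batch 2, and in Pxr-/- mice -0.19 (adjusted p = 0.59). The WT call was near the fold limit, and it was lost without WT CONT mouse 1 or 4 or WT PCN mouse 2 or 3, with changes of 0.49 to 0.54. The second probe of Cx3cr1 changed by 0.38 in WT mice and was not called.

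Ccr2 is the Ccl2 receptor of inflammatory monocytes (probe at chr9:124022948-124023007, mm9, plus strand). It read 6.53, 6.56, 6.10, 7.12 and 6.55 in WT PCN mice, against 5.75 through 5.83 to 6.24 in WT CONT, with 4 of 5 treated mice above every control. Pxr-/- CONT mice ran from 5.72 through 5.89 to 6.49 and Pxr-/- PCN mice from 5.97 through 6.17 to 6.54. The change in WT mice was 0.65 (SE 0.14, 1.57-fold, adjusted p = 0.00232), with 0.96 in batch 1 and 0.30 in batch 2 (adjusted p = 0.28). Without WT PCN mouse 4 it was 0.53, below the fold limit. The Pxr-/- mice changed by 0.22 (adjusted p = 0.36). The pan-leukocyte gene Ptprc (CD45), the integrin chain Itgam (CD11b), Cd52, the T cell gene Cd3e and the invariant chain Cd74 were not called in either genotype, with changes from -0.21 to 0.40 in WT mice and from -0.29 to 0.36 in Pxr-/- mice. The probes of Ptprc disagreed in sign. The brightest changed by -0.21 in WT mice, and the other 4 by 0.22 to 0.48, of which the probe at 0.22 passed the adjusted p (0.0222) without reaching 1.5-fold and without overlap between the groups.

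Among the 5 chemokines, Ccl2 and Cxcl1 rose in WT mice and Cxcl1 rose in Pxr-/- mice. Ccl2 draws Ccr2-bearing monocytes (probe at chr11:81850650-81850709, mm9, plus strand). The WT PCN mice read 8.91, 9.18, 9.08, 9.58 and 9.43, above all WT CONT mice, which ran from 7.27 through 7.74 to 8.50. The Pxr-/- controls ran from 7.06 through 7.41 to 8.92 and Pxr-/- PCN mice from 7.75 through 8.45 to 9.53. The change in WT mice was 1.42 (SE 0.31, 2.68-fold, adjusted p = 0.00217), with 1.64 in batch 1 and 1.22 in batch 2 (adjusted p = 0.13). That of the Pxr-/- mice was 0.90 (SE 0.30, adjusted p = 0.0711) and was not called. It was called without Pxr-/- CONT mouse 2 or Pxr-/- PCN mouse 6, with array weights and with the replicate number as a block.

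Cxcl1 is a ligand of the neutrophil receptor Cxcr2 (probe at chr5:91322080-91322139, mm9, plus strand). The WT PCN mice read 13.47, 10.71, 12.28, 14.37 and 13.76, and WT CONT mice ran from 9.84 through 10.57 to 12.43, with 3 of 5 treated mice above every control. Pxr-/- CONT mice ran from 9.56 through 10.90 to 12.25 and Pxr-/- PCN mice from 11.45 through 13.85 to 14.69, with 5 of 6 above every control. The spread within groups was the widest among the called members, with SDs from 0.89 to 1.45. The change was 2.14 in WT mice (SE 0.65, 4.41-fold, adjusted p = 0.0211), with 3.54 in batch 1 and 0.34 in batch 2 (adjusted p = 0.87). The WT call was lost without WT CONT mouse 1 or WT PCN mouse 4 or 5 (changes of 1.82 to 1.97, adjusted p from 0.0536 to 0.0638). The Pxr-/- mice changed by 2.69 (SE 0.62, 6.47-fold, adjusted p = 0.0126), with 2.68 in batch 1 and 2.71 in batch 2 (adjusted p = 0.0622 and 0.19).

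Ccl6, Ccl5 and Cxcl10 were not called. Ccl6, a chemokine of myeloid cells, changed by 0.68 (adjusted p = 0.0669) in WT mice and by 0.76 (adjusted p = 0.0734) in Pxr-/- mice. Cxcl10, a chemokine induced by interferons, changed by -0.49 in WT mice (adjusted p = 0.0512) and by -0.27 in Pxr-/- mice (adjusted p = 0.39). The 5 WT PCN mice read between 8.14 and 8.68 for Cxcl10, and the WT CONT mice between 8.70 and 9.60. Ccl5 changed by -0.24 and -0.23.

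Of the cytokines, Il1b and Il1rn rose in both genotypes. Il1b encodes interleukin 1 beta (probe at chr2:129190347-129190406, mm9, minus strand). It read 8.79, 7.62, 8.15, 8.14 and 8.27 in WT PCN mice, all above the WT CONT range of 6.84 to 7.47 (median 7.25). The Pxr-/- controls ran from 6.27 through 6.88 to 7.51 and Pxr-/- PCN mice from 7.37 through 7.79 to 8.27, with 5 of 6 above every control. The change was 0.97 in both genotypes (SE 0.20 and 0.19, 1.97-fold and 1.96-fold, limma adjusted p = 0.00163 and 0.00531). Within batches it was 1.29 and 0.59 (adjusted p = 0.19) in WT mice and 0.56 (adjusted p = 0.31) and 1.38 in Pxr-/- mice. The second probe of Il1b changed by 0.54 in WT mice (adjusted p = 0.0236) and by 0.56 in Pxr-/- mice (adjusted p = 0.0371), both under the fold limit.

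Il1rn encodes the antagonist that blocks the interleukin 1 receptor (probe at chr2:24206125-24206184, mm9, plus strand). The WT PCN mice read 8.60, 7.72, 6.91, 8.54 and 8.48, and WT CONT mice ran from 6.12 through 6.54 to 7.23, with 4 of 5 treated mice above every control. Pxr-/- CONT mice ran from 6.03 through 6.32 to 7.40 and Pxr-/- PCN mice from 7.41 through 8.11 to 9.34, with no overlap. The change was 1.45 in WT mice (SE 0.33, 2.74-fold, adjusted p = 0.00303), with 2.23 in batch 1 and 0.46 in batch 2 (adjusted p = 0.57). That of the Pxr-/- mice was 1.69 (SE 0.32, 3.24-fold, adjusted p = 0.00342), with 1.14 in batch 1 (adjusted p = 0.0835) and 2.25 in batch 2. The second probe of Il1rn changed by 0.61 (adjusted p = 0.0521) and 0.68 (adjusted p = 0.056) and was not called. Tnf changed by -0.51 in WT mice (adjusted p = 0.16) and by 0.23 in Pxr-/- mice (adjusted p = 0.63), and its second probe by 0.19 and 0.12.

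**Figure D4:**
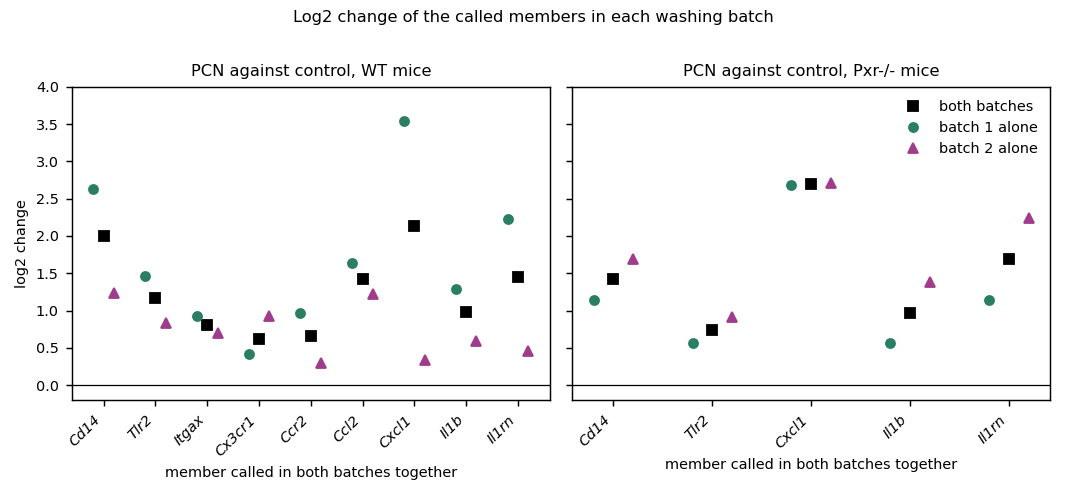
Log2 change after PCN (vertical axis) of the called members in WT mice (left) and Pxr-/- mice (right), over both washing batches (squares), in batch 1 alone (circles) and in batch 2 alone (triangles). All changes lie above 0, and in WT mice those of batch 2 are smaller than those of batch 1 for 8 of 9 genes, Cx3cr1 being the exception.

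In WT mice 8 members were called within batch 1 and 1, Cx3cr1, within batch 2. None was called in Pxr-/- mice within batch 1 and 2, Il1b and Il1rn, within batch 2. With the log2 values that the authors deposited, 14 members were called in WT mice in place of 9, all of the 9 and Lyz2, Ctss, Fcer1g, Tyrobp and Ccl6. On that scale the median of all probes shifted by 0.11. The share of all probes called was not counted within batches or on that scale.

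Whether PCN acted differently in the genotypes was tested as the difference between the PCN effects. None of the 36 members was called by limma, with 0.882% of all probes called, and 4 had an unadjusted p under 0.05, against 14.3% of all probes. The differences lay above 0 for 19 of 36 members and for 47.3% of all probes. The 4 were Itgax (0.57, 95% interval 0.02 to 1.12), Cx3cr1 (0.80, interval 0.27 to 1.34), Ccr2 (0.43, interval 0.02 to 0.84) and Tnf (-0.74, interval -1.47 to -0.01), where a positive value is a larger change in WT mice. The lowest adjusted p was 0.13, for Cx3cr1. For Il1b the difference was 0.00 (interval -0.58 to 0.59), for Cd14 0.58 (interval -0.27 to 1.43) and for Cxcl1 -0.55 (interval -2.42 to 1.32). The calls in WT mice that were absent in Pxr-/- mice are therefore not shown to differ between the genotypes.

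Between control mice of the 2 genotypes none of the 36 members was called by limma, with 0.271% of all probes called and 0.0623% called lower, and 2, Cxcl10 (-0.40) and Itgam (-0.28), had an unadjusted p under 0.05, against 11.3% of all probes. No member was without overlap between these groups, as 0.411% of all probes were higher and 0.346% lower. Of the 36 differences 7 lay above 0, against 48.2% of all probes. The median difference of Pxr-/- CONT minus WT CONT was -0.11 over the members, and it was 0.21 within batch 1 and -0.41 within batch 2. Between PCN-treated mice, Cd14 and Cx3cr1 were lower in Pxr-/- PCN than in WT PCN, where 1.79% of all probes were called, 0.636% higher and 1.15% lower. In all, 10 of 36 differences lay above 0, against 52.5% of all probes, and 8 members had an unadjusted p under 0.05, against 23.6%. The Cx3cr1 difference was -0.80 (SE 0.19, adjusted p = 0.0119), with the 6 Pxr-/- PCN mice below the 5 WT PCN mice, as 3.2% of all probes were (2.86% lay above), and it was -0.53 in batch 1 and -1.18 in batch 2. Its call was lost without WT PCN mouse 2 (-0.67, adjusted p = 0.0506). The Cd14 difference was -0.96 (SE 0.30, adjusted p = 0.048), with -1.29 in batch 1 and -0.51 in batch 2, and it kept its call only without WT CONT mouse 4 or 6, WT PCN mouse 3, Pxr-/- PCN mouse 1 or 4 or Pxr-/- CONT mouse 2, and lost it without any of the other 17 arrays. The second probe of Cd14 differed by -0.80 (limma adjusted p = 0.0971) and was not called. That of Cx3cr1 differed by -0.41 (adjusted p = 0.0459), under the fold limit, and was not called either. With the deposited log2 values 8 members were lower in Pxr-/- PCN, on a scale where the median of all probes shifted by -0.18. The share of all probes called there was not counted.

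Related genes outside the 37 were read from further lists, of which 145 of 160 genes could be tested. The counts of calls below stand against the shares over all probes. These were 3.38% called higher and 2.13% lower in WT mice, and 1.23% and 0.698% in Pxr-/- mice. Of 48 other macrophage and monocyte genes, 7 rose and 2 fell in WT mice, and 2 rose and 1 fell in Pxr-/- mice, with medians of 0.28 and 0.18. Gpnmb, a glycoprotein of lipid-laden macrophages, changed by 1.49 in WT mice (adjusted p = 0.0145), was well above background in 1 of 6 WT CONT mice and 4 of 5 WT PCN mice, and its call was lost without WT PCN mouse 2. It passed the filter through the treated mice, and with dim controls the size of the change depended on the setting (0.91 to 3.36). Csf2rb, the beta chain shared by the receptors for GM-CSF and interleukins 3 and 5, read 10.83, 10.94, 10.91, 11.33 and 11.13 in WT PCN mice, against 9.33 through 9.54 to 10.05 in WT CONT. Csf2rb in Pxr-/- mice ran from 9.58 through 9.86 to 10.31 in controls and lay between 9.81 and 10.31 after PCN. It was called in WT mice (1.41, adjusted p = 5.47e-07) and in the difference between the PCN effects (1.21, adjusted p = 0.00114), and its change in Pxr-/- mice was 0.20. Lgals3, the macrophage lectin galectin 3, rose by 0.94 in WT mice and by 0.81 in Pxr-/- mice.

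Of 10 tested neutrophil genes, 6 rose in WT mice and 5 in Pxr-/- mice, and none fell, with medians of 0.93 and 0.57. For 4 of the 10 the Pxr-/- estimates lay below 0, none of them called, namely the granule genes Camp, Ltf, Mpo and Elane (-0.45 to -0.12, named after their values were seen), of which Mpo was called higher in WT mice (0.83). That Mpo call was lost in 10 of 37 settings, with changes from 0.55 to 1.48 over the settings. These included each washing batch alone and leaving out WT CONT mouse 1, 3, 4 or 5 or WT PCN mouse 2 or 4. Retnlg, a resistin-like protein of neutrophils, read 9.11, 8.59, 7.93, 9.66 and 9.61 in WT PCN mice, against 5.65 through 5.99 to 6.99 in WT CONT. Among Pxr-/- mice it ran from 5.49 through 6.24 to 7.37 in controls and between 8.205 and 10.09 (median 9.09) after PCN. No treated mouse overlapped with the controls of its genotype, and the change was 2.76 in each genotype (limma adjusted p = 3.77e-05 and 0.000479). S100a8 and S100a9, the subunits of calprotectin, rose by 2.21 and 2.03 in WT mice and by 2.19 and 2.00 in Pxr-/- mice. In WT mice the calls of Retnlg, S100a8 and S100a9 were lost in washing batch 2 alone. In Pxr-/- mice those of S100a8 and S100a9 were lost in each batch alone. The summed level of the list ran from 10.68 to 12.48 (log2) in WT CONT, from 12.60 to 13.99 in WT PCN, from 10.93 to 12.58 in Pxr-/- CONT and from 12.61 to 14.19 in Pxr-/- PCN. Neutrophils were not measured otherwise, and their part in the changes of Cd14, Tlr2, Il1b, Il1rn and Cxcl1 was not tested.

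Of 19 other chemokines and chemokine receptors, 4 rose and 1 fell in WT mice (Cxcl12, named after its values were seen), and 1, Ccl7, rose in Pxr-/- mice. Cxcl12 changed by -0.79 in WT mice and was called in the difference between the PCN effects (-0.90, adjusted p = 0.00568). Both Cxcl12 calls were lost with the deposited log2 values and with stacked quantile normalization. Ccl7, another monocyte chemokine, changed by 1.57 in WT mice and by 0.93 in Pxr-/- mice (adjusted p = 0.0254). The latter call was lost in 8 of 37 settings, including without Pxr-/- PCN mouse 1 or 4 or Pxr-/- CONT mouse 3 or 5. Ccl9 changed by 1.31 and Ccl24 by 1.02 in WT mice, and by 0.25 and 0.63 in Pxr-/- mice, where neither was called. Of 15 other cytokines and receptors, 2 rose in WT mice and 4 in Pxr-/- mice. The signalling receptor Il1r1 changed by 0.71 in WT mice (adjusted p = 0.18) and by 1.42 in Pxr-/- mice (adjusted p = 0.0206), and the decoy receptor Il1r2 by 1.25 and 0.99, being well above background in 2 of 6 WT CONT and 1 of 6 Pxr-/- CONT mice. Il1r2 thus passed the filter through the treated mice, and over the settings its change ran from 0.78 to 2.56 and from 0.61 to 2.49. The Il1r1 call was lost without any one of 4 arrays (Pxr-/- PCN mouse 3 or 4, Pxr-/- CONT mouse 1 or 5). Csf1, the growth factor of macrophages, changed by 0.52 (adjusted p = 0.00334, under the fold limit) and 0.78. Of 25 genes of the Toll-like receptor pathway, 2 rose in WT mice and 3 in Pxr-/- mice. Irak3, an inhibitor of the pathway, changed by 0.56 in WT mice, under the fold limit, and by 0.82 in Pxr-/- mice, Myd88 by 0.32 and 0.65, and the adhesion molecule Icam1 by 0.96 and 0.65. The Myd88 call in Pxr-/- mice was lost without Pxr-/- PCN mouse 3 or 4 or Pxr-/- CONT mouse 5, and the Icam1 call without Pxr-/- CONT mouse 5. None of 18 T, B and natural killer cell genes and none of 10 dendritic cell and MHC class II genes was called after PCN in either genotype by limma. At an unadjusted p under 0.05 were 2 and 1 of them in WT mice, against 34.8% of all probes. In Pxr-/- mice these were 3 and 1, against 21.6% of all probes.

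**Figure D5:**
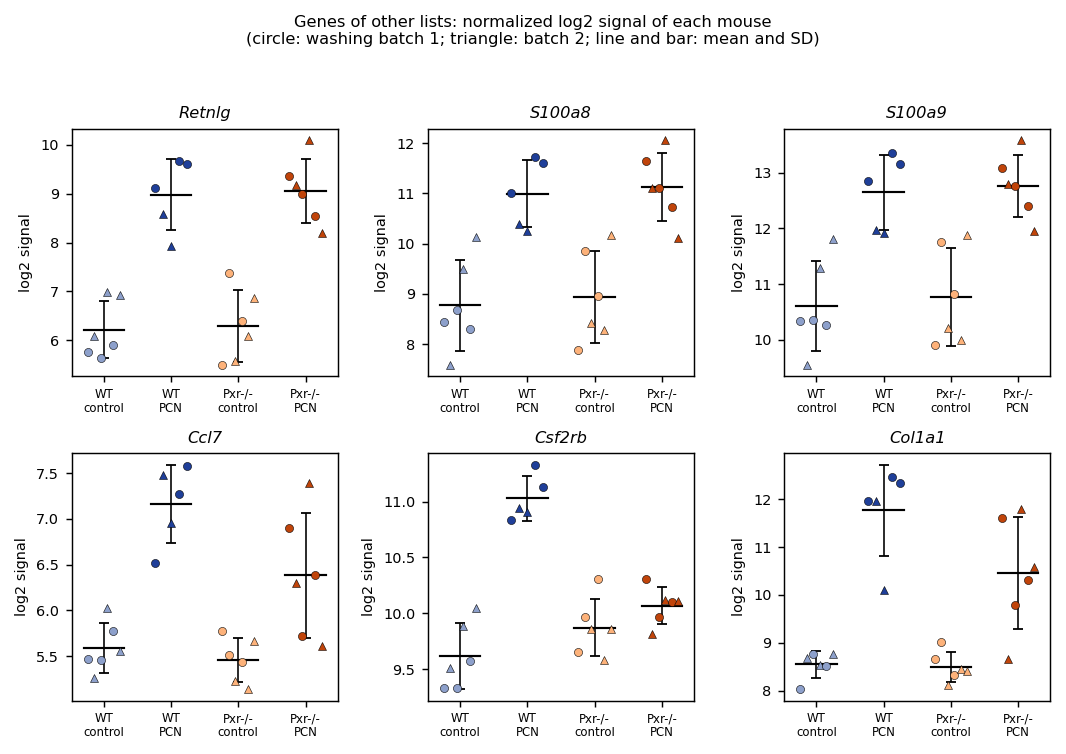
Normalized log2 signal (vertical axis) of 6 genes of the other lists in each mouse, drawn as for the members. Retnlg shows no overlap between treated and control mice in either genotype, and Csf2rb is higher after PCN in WT mice and overlaps with controls in Pxr-/- mice.

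Markers of other liver cells moved beside these genes in part. The fibrillar collagens Col1a1, Col1a2 and Col3a1, the 3 called of 11 stellate cell markers, rose in both genotypes, while the median of that list was 0.09 in WT mice and 0.10 in Pxr-/- mice. The Col3a1 call in Pxr-/- mice was lost in 11 of 38 settings, 7 of them leaving out 1 array (Pxr-/- PCN mouse 1, 4 or 6, Pxr-/- CONT mouse 1, 3, 4 or 6), and the Col1a2 call there with only the groups compared and within each batch. The Col1a1 call in Pxr-/- mice was lost within each batch, and in WT mice the 3 collagen calls were lost in batch 2 alone. Col1a1 read 11.96, 11.96, 10.11, 12.46 and 12.34 in WT PCN mice, against 8.03 through 8.61 to 8.77 in WT CONT, and it changed by 3.17 in WT mice and by 1.96 in Pxr-/- mice. The summed level of the stellate list ran from 14.64 to 15.39 in WT CONT and from 15.10 to 15.70 in WT PCN. None of 12 endothelial markers was called after PCN in either genotype by limma (4 and 4 at an unadjusted p under 0.05, against 34.8% and 21.6% of all probes). Their summed level ran from 14.30 to 14.87 in WT CONT and from 14.19 to 14.58 in WT PCN. In Pxr-/- mice it ran from 14.04 to 14.74 in controls and from 14.44 to 14.90 after PCN. Of the 12 endothelial estimates 8 lay above 0 in WT mice and 10 in Pxr-/- mice, against 45.7% and 47.6% of all probes. Their medians were 0.06 and 0.19. Of 9 hepatocyte markers none was called in WT mice and 1, Apoa1, in Pxr-/- mice (0.62), which was lost without Pxr-/- PCN mouse 2. Of 6 tested cholangiocyte markers Sox9 was called in WT mice (0.76) and none in Pxr-/- mice. In that list 5 of 6 estimates lay above 0 in each genotype, against 45.7% and 47.6% of all probes. At an unadjusted limma p under 0.05 were 3 and 4 of them, against 34.8% and 21.6% of all probes. The medians of that list were 0.57 and 0.61. Its summed level ran from 10.53 to 12.21 in WT CONT, from 11.69 to 12.97 in WT PCN, from 10.83 to 11.72 in Pxr-/- CONT and from 11.17 to 12.52 in Pxr-/- PCN. Of 8 blood cell markers the platelet gene Pf4 was called in WT mice (1.09), a call lost in each washing batch alone. The blood list had medians of -0.30 and -0.34, with 2 of 8 estimates above 0 in each genotype, against 45.7% and 47.6% of all probes. Of these 8, 3 and 4 had an unadjusted limma p under 0.05, against 34.8% and 21.6% of all probes. None of 5 tested pancreas markers was called after PCN in either genotype by limma, nor had any an unadjusted p under 0.05. The part of these cells in the members' changes was not tested.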

How the data were processed

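Liver RNA of 23 mice was measured on 1-colour Agilent arrays, 1 per mouse. The deposited scanner files hold spot intensities, made by the authors with Agilent Feature Extraction 10.10.1.1 and not normalized between arrays. The authors also deposited log2 values, filtered, corrected for washing batch and normalized with CrossNorm, which were used as an alternative. From the scanner files, the median signal was log2 transformed, 2225 spots marked as outliers were set missing and spots of a probe were averaged. Probes well above background on over 50% of the arrays of at least 1 group were kept (32087 of 56605) and quantile normalized. They were fitted with limma 3.58.1 (R 4.3.3) on group and washing batch, with 18 residual degrees of freedom and Benjamini-Hochberg adjustment over all 32087 probes. All adjusted p-values are from such limma fits. The number of arrays limits the precision, and depth does not apply.

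Full values are given for members called in at least 1 comparison and, in a list without calls, for the member with the highest mean. Of the further lists up to 3 called genes with the largest change are named, from the comparison with most calls. The members and lists were chosen with earlier results of these data known. Mice were grouped by the labels. The p-values set a difference between groups against the spread between mice within groups, which limma moderates using all probes. Alternatives covered signal, normalization, filter, batch, slide, probe choice and each array left out.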

Additional observations from a re-analysis of the deposited data

Results flagged for a closer look

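Of 144 groups of mice examined, 36 members in 4 groups each, 9 held 1 mouse whose gap to the nearest of the others, relative to the range of the group, exceeded Dixon's 95% critical value. Chance gives about 1 in 20 groups. Among WT CONT mice these were mouse 5 for Lyz1 (log2 signal 12.72), mouse 6 for Cxcl1 (12.43) and mouse 2 for Cxcl10 (9.60), each the highest of its group. WT PCN mouse 3 was the highest for both Fcer1g (11.73) and Tyrobp (12.15). Among Pxr-/- CONT mice, mouse 1 was the lowest for C1qa (9.92), and mouse 2 was the highest for Ccr2 (6.49) and for Il1rn (7.40). Pxr-/- PCN mouse 6 was the highest for Cxcl10 (8.62).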

How the results depend on the processing

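With other settings, 14 members were called after PCN in WT mice in place of 9 with the deposited log2 values and also 14 with stacked quantile normalization, and 1 in washing batch 2 alone. In Pxr-/- mice 0 in place of 5 were called in batch 1 alone and 2 in batch 2 alone. For genotype in PCN-treated mice the 2 calls became 8 with the deposited values, 7 with stacked quantile normalization, 1 with the processed signal, without the filter on dim probes, with only the groups compared or with the mean of all probes of a gene, and 0 in either batch alone. Batches hold fewer arrays, and the cause of the other moves was not tested. The share of all probes called was counted for the main fit only. Leaving out 1 array gave 7 to 10, 4 to 6 and 0 to 3 calls for these 3 comparisons. The difference between PCN effects and the genotype in control mice gave 0 calls in all 16 settings and without any 1 array. No called value changed sign under any setting run, while 11 of 27 uncalled members in WT mice and 10 of 31 in Pxr-/- mice did in at least 1.

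Same-numbered arrays correlated by -0.25 to 0.49 and 7 of 23 lay closest to their own number, so the numbers were not taken as pairs. With the replicate number as a block the counts were 9, 5, 0, 0 and 2, with Tlr2 lost (adjusted p = 0.0522) and Ccl2 gained in Pxr-/- mice. Cx3cr1 and Ccr2 in WT mice fell under the fold limit after normexp correction (0.53 and 0.48), and Cx3cr1 with the mean of its probes (0.50).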
